A study of Rattus norvegicus with 17 samples.

Results

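Anxa13 (ENSRNOG00000007980, annexin A13, on rat chromosome 7) encodes an annexin of epithelial cells and was measured in the kidneys of rats after sub-total nephrectomy (SNx) and of control rats. It is 1 of 23487 genes in the count table. The gene was chosen from its fall in the SNx against NoOp contrast of these same libraries, so its values in that contrast are given as a description, without a test. It was identified by its symbol in the study's own lists of significant transcripts, which pair 2007 identifiers with a symbol, and it was compared with the 7 other annexins that have a symbol there (Anxa1, Anxa2, Anxa3, Anxa4, Anxa5, Anxa7 and Anxa8). Anxa6, Anxa9, Anxa10 and Anxa11 have no identifier there and were not analysed here. Anxa13 itself has its symbol in the list of the study's other SNx experiment, not in the one for these rats.

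Annexins are cytosolic proteins that bind acidic phospholipids when calcium rises, and so attach reversibly to the inner face of membranes. They take part in vesicle transport, membrane repair and the organisation of the cytoskeleton beneath the membrane, and several of them pair with S100 proteins. Anxa13 is regarded as the member closest to the ancestral vertebrate annexin. It carries a myristoyl group and is known from polarised epithelia of the intestine and kidney, where it has been linked to transport of vesicles to the cell surface.

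All animals of the experiment were male Wistar Han rats. In SNx, part of the right kidney was removed and the left kidney was taken out later, after which the remnant kidney fails progressively, and rats were to be culled when a set limit of protein in urine or of creatinine in serum was reached. According to the study, most operated rats of this experiment did not reach a limit. The labels do not say which of the sequenced SNx kidneys came from rats that did. The part of this in the spread among the SNx kidneys was not tested. The libraries came from 12 SNx kidneys and 5 control kidneys, 1 library per sample. The labels do not say that each sample is a separate rat, so p-values measure the spread between these samples. The labels call the controls NoOp, while the methods of the study call the controls of this experiment sham, and the labels' name is used here. Neither the age nor the time after surgery of a single rat is given in the labels. An SNx library held between 19210434 and 30784070 counts (median 22709319) and a NoOp library between 30454170 and 43876369 (median 32745316), so the NoOp values rest on more counts. The numbers in the library titles fall into a lower and a higher range. The first 6 SNx libraries and all NoOp libraries lie in the lower range and SNx 7 to SNx 12 in the higher one, and the labels do not say what the ranges are.

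Anxa13 was low in every SNx kidney. In the NoOp kidneys its counts were 482, 369, 1028, 948 and 1591, which equal levels of 17.2, 12.8, 31.2, 24.5 and 55.5 CPM (counts relative to library size, with TMM factors that correct for library composition). In the SNx kidneys the lowest count was 4, the median 37.5 and the highest 143, and the level ranged from 0.197 to 5.79 CPM with a median of 1.51 CPM. The groups did not overlap, and the lowest NoOp kidney lay 2.22-fold above the highest SNx kidney.

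Mean Anxa13 was 28.2 ± 16.8 CPM (SD, n = 5) in NoOp and 1.99 ± 1.79 CPM (SD, n = 12) in SNx, a 14.2-fold difference. The log2 fold change of the quasi-likelihood fit (edgeR) was -3.82 with a standard error of 0.54. This was the ninth most negative value of the 15438 genes that passed the filter on low counts, whose median was 0.02. Every SNx library lay below every NoOp library in 9.6% of these genes. Because the gene was picked for this contrast, its place in that order is no evidence about it. In bulk tissue, fewer cells of a type and less RNA per cell cannot be told apart.

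**Figure D1:**
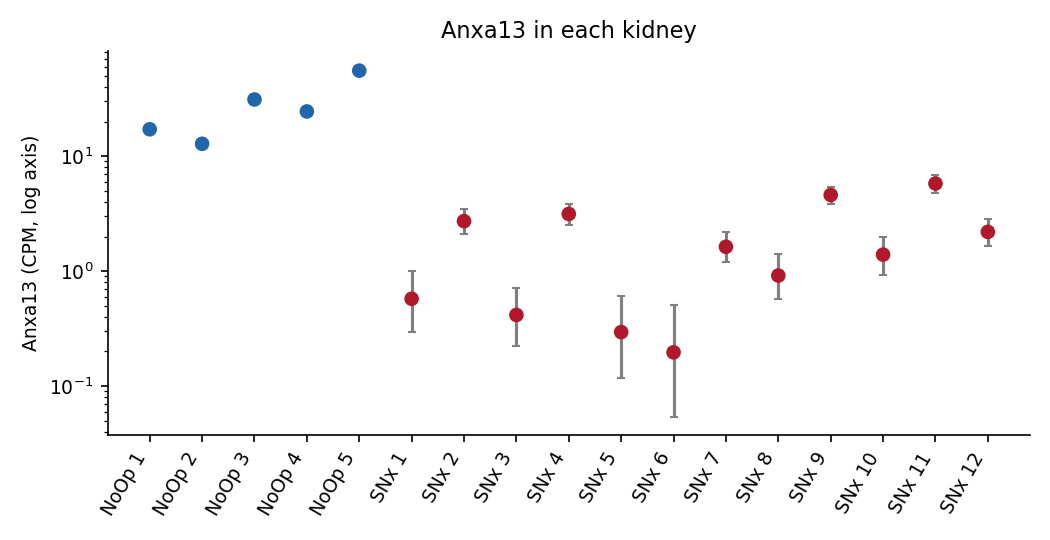
Anxa13 in each of the 17 kidneys in CPM on a log axis (blue for 5 NoOp, red for 12 SNx). Vertical lines are 95% exact Poisson intervals of the count and cover counting error only. All SNx kidneys lie below all NoOp kidneys, from 0.197 CPM in SNx 6 to 5.79 CPM in SNx 11.

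The SNx kidneys were not alike. The highest level, in SNx 11, was 29.5-fold above the lowest, in SNx 6. SNx 9 (4.60 CPM), SNx 4 (3.14 CPM) and SNx 2 (2.72 CPM) followed SNx 11. The libraries at the bottom were SNx 5 (0.295 CPM), SNx 3 (0.416 CPM) and SNx 1 (0.575 CPM), all of the lower number range like SNx 6. The 4 counts of SNx 6 have an exact Poisson 95% interval of 1.09 to 10.2, and the 7 counts of SNx 5 one of 2.81 to 14.4. The 12 counts of SNx 1 (6.20 to 21.0) and the 13 of SNx 3 (6.92 to 22.2) have intervals that overlap these. SNx 1, SNx 3, SNx 5 and SNx 6 can therefore not be ordered at this depth. The 143 counts of SNx 9 have an interval of 120.5 to 168.5, which lies apart from all of these. On the log2 CPM scale (prior count of 2) the SD of Anxa13 over SNx was 1.46, larger than in 97.9% of the tested genes, and over NoOp it was 0.81, larger than in 97.1%. The NoOp kidneys differed among themselves by 4.33-fold between the lowest and the highest. NoOp 5 alone set that upper limit (55.5 CPM), and the next highest, NoOp 3, had 31.2 CPM.

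Among the other annexins, 5 of 7 were upregulated in SNx and none was downregulated at FDR < 0.05 (edgeR's quasi-likelihood test, Benjamini-Hochberg over all genes). Of all tested genes, 30.3% were upregulated and 27.7% downregulated. All 7 identifiers come from the study's lists of significant transcripts, and those of Anxa1, Anxa2 and Anxa5 also from its list for these rats, so these calls are not independent evidence of a direction. For Anxa1, Anxa2, Anxa3, Anxa5 and Anxa7, every SNx kidney lay above every NoOp kidney, a pattern found in 13.5% of all tested genes. Anxa2 and Anxa7 have 8 and 4 pseudogenes named in RefSeq, whose reads may be shared with them, and their values are uncertain to that extent.

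Anxa1, a glucocorticoid-responsive annexin known for limiting inflammation, had levels in SNx from 7.20 to 8.43 log2 CPM with a median of 7.93. Its NoOp levels were 6.04, 6.25, 6.33, 6.25 and 6.37 log2 CPM. The kidneys separated fully, with a log2 fold change of 1.70 ± 0.19 (SE, edgeR adjusted p = 3.24e-06).

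Anxa2, which forms a complex with S100a10 and binds plasminogen at the cell surface, ranged from 7.09 to 8.40 log2 CPM in SNx with a median of 7.59, and was 6.14, 6.30, 6.43, 6.21 and 6.57 log2 CPM in NoOp. Its log2 fold change was 1.35 ± 0.21 (SE, edgeR adjusted p = 5.61e-05). SNx 1 and SNx 5 were the highest kidneys for Anxa2, and SNx 11 and SNx 4, both with much Anxa13 for an SNx kidney, were the lowest.

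Anxa3, known from neutrophils and other phagocytes, ranged from 4.76 to 6.21 log2 CPM in SNx with a median of 5.20, against 3.81, 3.99, 4.42, 4.26 and 4.14 log2 CPM in NoOp. The log2 fold change was 1.24 ± 0.22 (SE, edgeR adjusted p = 0.000208). SNx 1 again held the highest level and SNx 11 the lowest of the SNx kidneys.

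Anxa5, which binds phosphatidylserine on the surface of dying cells, was nearly constant in NoOp at 6.17, 6.11, 6.14, 6.25 and 6.15 log2 CPM. In SNx it ranged from 6.60 to 7.79 log2 CPM with a median of 7.16, and its log2 fold change was 1.07 ± 0.15 (SE, edgeR adjusted p = 2.03e-05). SNx 4 was the lowest SNx kidney and SNx 5 the highest.

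Anxa7, also called synexin and known for promoting membrane fusion, ranged from 6.23 to 6.80 log2 CPM in SNx with a median of 6.42, against 5.40, 5.51, 5.82, 5.65 and 5.81 log2 CPM in NoOp. It had the smallest rise of the 5, with a log2 fold change of 0.82 ± 0.10 (SE, edgeR adjusted p = 7.61e-06). SNx 5 and SNx 6, the kidneys with the fewest Anxa13 counts (7 and 4), had the most Anxa7.

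Anxa4, an annexin abundant in secretory and absorptive epithelia, overlapped between the groups. It ranged from 6.92 to 7.42 log2 CPM in SNx with a median of 7.21 and was 7.08, 6.99, 7.30, 7.10 and 7.44 log2 CPM in NoOp. The log2 fold change was 0.04 ± 0.08 (SE, edgeR adjusted p = 0.666). Scaling by library size alone gave 0.24 (edgeR adjusted p = 0.0222), but that scaling moved the median of all genes from 0.02 to 0.23.

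Anxa8, an anticoagulant annexin of skin and other stratified epithelia, was the only other annexin that varied as much among kidneys as Anxa13, with an SD of 1.87 log2 CPM in SNx. Its counts in SNx ran from 2 in SNx 5 to 352 in SNx 1, that is from -2.66 to 4.08 log2 CPM with a median of 1.43, and its NoOp levels were -0.63, 1.11, 0.80, 1.22 and 1.67 log2 CPM. The groups overlapped, with 5 SNx kidneys above all NoOp kidneys and 2 below, and the log2 fold change of 0.95 ± 0.79 (SE) did not pass (edgeR adjusted p = 0.310). The size of this value rests on SNx 1, without which it was 0.40, and on the method, since limma-voom gave 0.10 and limma on the deposited log2 values 0.17. Levels are not compared between genes, since gene lengths were not used.

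**Figure D2:**
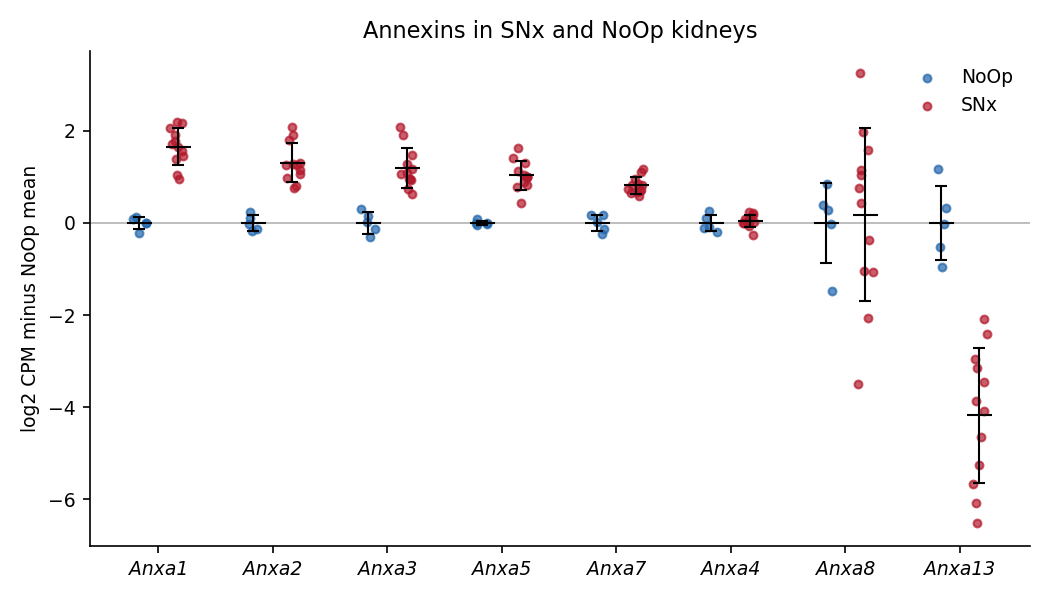
Level of 8 annexins in each kidney as log2 CPM minus the mean of the NoOp kidneys (blue for 5 NoOp, red for 12 SNx), with mean and SD in black. Anxa1, Anxa2, Anxa3, Anxa5 and Anxa7 lie above 0 in all SNx kidneys, Anxa4 stays near 0, Anxa8 is spread to both sides and Anxa13 lies between -6.52 and -2.08.

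Many S100 and C2 domain proteins, though not all, bind calcium as annexins do, and S100a10 and S100a11 are partners of annexins. Of 6 S100 genes tested, 3 were upregulated, 1 was downregulated and 2 did not pass, beside 30.3% up and 27.7% down over all genes, and their median log2 fold change was 0.27 against 0.02 over all genes. S100a10, the partner of Anxa2, rose by 1.20 ± 0.15 on the log2 scale (SE, edgeR adjusted p = 1.11e-05) and S100a11, the partner of Anxa1, by 1.32 ± 0.24 (SE, edgeR adjusted p = 0.000227). S100a16 rose by 0.22 ± 0.09 (SE, edgeR adjusted p = 0.0411). S100g, the vitamin D-dependent calbindin, was the member that fell, with a log2 fold change of -2.13 ± 0.50 (SE, edgeR adjusted p = 0.00185) at few counts. S100a6, with 0.31 ± 0.33 (SE), and S100a4, with -0.14 ± 0.37 (SE), did not pass. Of 32 C2 domain genes written into the list, 10 had an identifier, and these 10 were upregulated, with a median of 1.40. The most abundant were Myof, which encodes the membrane repair protein myoferlin (1.41 ± 0.24, SE, edgeR adjusted p = 0.000136), and Esyt1, which tethers the endoplasmic reticulum to the plasma membrane (0.83 ± 0.10, SE, edgeR adjusted p = 9.60e-06). As for the annexins, the identifiers of these lists come from the study's significant transcripts, and their calls are not independent evidence.

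Genes of the proximal tubule, whose apical membrane forms the brush border, were mostly low in the same kidneys. The lists of the tubule and of other cell types likewise hold only genes with an identifier from the study's significant transcripts, so genes that did not change could hardly enter, and their counts are not independent evidence. Of 44 apical proximal tubule genes written into the list, 27 had an identifier, and 24 of these were downregulated and none upregulated, beside 27.7% downregulated over all genes. Their median log2 fold change was -1.26. The most abundant, Lrp2 (the endocytic receptor megalin), was 9.72 to 12.5 log2 CPM in SNx against 12.8 to 13.1 in NoOp, and its log2 fold change was -1.19 ± 0.33 (SE, edgeR adjusted p = 0.00528). Slc34a1, the sodium-phosphate cotransporter, and Slc3a1, a subunit of the cystine transporter, had log2 fold changes of -1.42 ± 0.56 (SE, edgeR adjusted p = 0.0378) and -1.73 ± 0.46 (SE, edgeR adjusted p = 0.00443). Dab2, an endocytic adaptor, had -0.02 ± 0.14 (SE), and it did not pass, nor did Slc17a1 and Slc17a3. Of 14 basolateral transporters in the list 10 had an identifier, 8 of which were downregulated, and Slc2a2, a glucose transporter, was upregulated. The most abundant were Slc13a3, a dicarboxylate transporter (-1.38 ± 0.49, SE, edgeR adjusted p = 0.0234), and Slc22a6, an organic anion transporter (-1.68 ± 0.59, SE, edgeR adjusted p = 0.0212). Of 8 proximal tubule transcription factors 4 had an identifier, and these 4 were downregulated, among them Hnf4a (-1.37 ± 0.34, SE, edgeR adjusted p = 0.00280) and the bile acid receptor Nr1h4 (-1.09 ± 0.18, SE, edgeR adjusted p = 0.000106).

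In each SNx kidney, Anxa13 was lower, relative to NoOp, than the sum of the apical genes. The summed level of the 27 apical genes, of which Lrp2 was the most abundant and none was at 0 in any library, ranged from 2577 to 18590 CPM in SNx (median 11240 CPM) against 25130 to 29050 CPM in NoOp. SNx 1 set the lower limit, and the next lowest, SNx 5, had 4726 CPM. As a share of the NoOp mean, this sum was between 9.48% and 68.4% in the SNx kidneys (median 41.3%), while Anxa13 was between 0.696% and 20.5% (median 5.35%). Anxa13 per 1000 CPM of apical genes was 0.0304 to 0.311 CPM in SNx, with a median of 0.182, and 0.446 to 2.21 CPM in NoOp, with a median of 0.844, without overlap. NoOp 5 alone set the limit of 2.21 CPM, with 55.5 CPM of Anxa13 against 31.2 CPM in the next highest, NoOp 3. These values use the contrast that the gene was chosen on and carry no test. SNx 2 and SNx 3 held 51.7% and 50.3% of the apical sum of the NoOp mean, but 9.64% and 1.47% of its Anxa13. SNx 1, which had the lowest apical sum, had 2.04% of the NoOp mean of Anxa13. At its few counts it cannot be ordered against SNx 3, SNx 5 and SNx 6. The part of the loss of proximal tubule transcripts in the low Anxa13 was not tested.

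**Figure D3:**
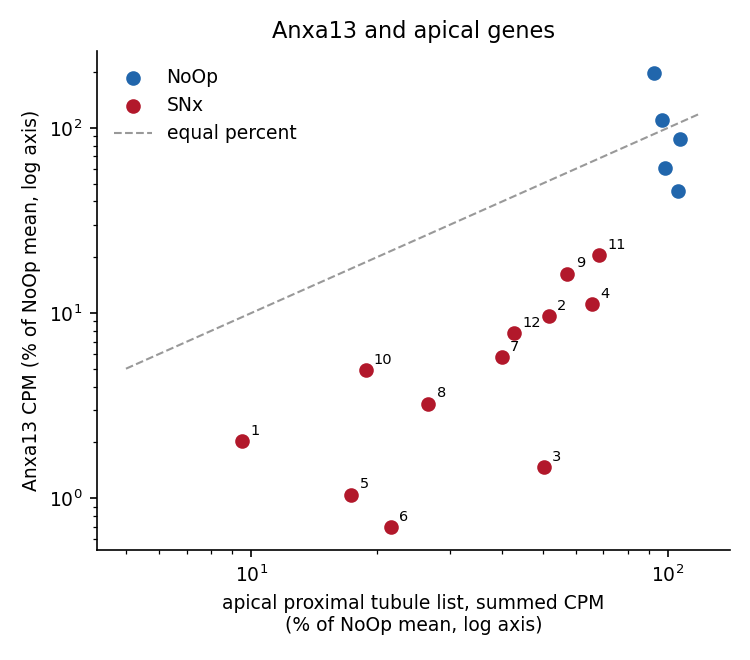
Anxa13 (vertical, CPM) against the summed CPM of 27 apical proximal tubule genes (horizontal), both as percent of the NoOp mean on log axes, with 1 point per kidney (blue for NoOp, red for SNx with its number). All 12 SNx kidneys lie under the dashed line of equal percent, and SNx 3 lies far below SNx 2 at nearly the same apical sum.

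The injury, fibroblast, leukocyte and keratin genes with an identifier were upregulated in SNx, beside 30.3% of all genes, with the limit just given on how they entered the lists. Of 10 tubular injury genes 6 had an identifier, and their sum was 343.3 to 607.6 CPM in NoOp and 3157 to 16930 CPM in SNx. The most abundant was Spp1, which encodes osteopontin, with a log2 fold change of 4.44 ± 0.46 (SE, edgeR adjusted p = 1.38e-06), followed by Clu, which encodes the secreted chaperone clusterin, with 3.83 ± 0.35 (SE, edgeR adjusted p = 4.31e-07). The lowest injury sum among the SNx kidneys was in SNx 11 and the highest in SNx 5. Of 14 fibroblast and myofibroblast genes 7 had an identifier, with the collagen genes Col1a1 (3.63 ± 0.63, SE) and Col3a1 (2.74 ± 0.39, SE) the most abundant and a sum of 607.4 to 707.5 CPM in NoOp against 1937 to 12310 CPM in SNx. SNx 1 alone set that upper limit, and the next highest, SNx 5, had 4030 CPM. Of 27 leukocyte genes 17 had an identifier, with Csf1r, a macrophage growth factor receptor (1.51 ± 0.18, SE), and Coro1a, an actin-binding protein (2.12 ± 0.18, SE), the most abundant and a sum of 154 to 244.8 CPM in NoOp against 447.5 to 1057 CPM in SNx. Of 5 simple epithelial keratin genes 4 had an identifier, with Krt7 (0.56 ± 0.20, SE) and Krt8 (0.54 ± 0.14, SE) the most abundant and a sum of 458.1 to 610 CPM in NoOp against 599.3 to 1123 CPM in SNx.

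The distal nephron, podocyte and endothelial lists held few genes with an identifier. Of 4 distal nephron and collecting duct genes, 2 rose and 2 fell, beside 30.3% upregulated and 27.7% downregulated over all genes. Slc26a4, an anion exchanger (-0.72 ± 0.18, SE), and Cldn10, a tight junction protein (-0.81 ± 0.27, SE), were lower in SNx, and Cldn4, another tight junction protein (1.21 ± 0.23, SE), and the calcium channel gene Trpv5 (1.52 ± 0.31, SE) were higher. Slc26a4 had the highest mean count of the 4, and the list had sums of 303.7 to 372.8 CPM in NoOp and 237.7 to 372.4 CPM in SNx. Of the podocyte genes, the most abundant, Ptpro, a receptor phosphatase, fell by 1.32 ± 0.18 on the log2 scale (SE, edgeR adjusted p = 1.61e-05). The single endothelial gene, Ehd3, fell by 0.73 ± 0.19 on the log2 scale (SE, edgeR adjusted p = 0.00408). None of the genes of the cell type and injury lists was at 0 in any library. The part of these cell types in the low Anxa13 was not tested.

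The neighbour of Anxa13 that has an identifier, Fam91a1, was chosen by its position on the chromosome. Its level was 6.41 to 7.45 log2 CPM in SNx and 7.46 to 7.69 in NoOp. It fell by 0.48 ± 0.13 on the log2 scale (SE, edgeR adjusted p = 0.00592), a smaller change than that of Anxa13, which was picked for its fall.

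The variation among the 12 SNx kidneys was not used to choose Anxa13 and could be tested. Within SNx, kidneys with less Anxa13 had more of 5 other annexins, although most of these calls were lost in smaller sets of kidneys, as set out after their values. Over all genes, 10.3% had a Pearson's r with Anxa13 below -0.7 in these kidneys, a share without a test. The relation of log2 CPM was tested for each of the 7 annexins with 100000 permutations, two-sided, with Benjamini-Hochberg adjustment over the 7. Pearson's r with Anxa13 was -0.78 for Anxa3 (permutation p = 0.0022, adjusted p = 0.0087), and Spearman's rho was -0.90 (permutation p = 0.00017, adjusted p = 0.00119). For Anxa7 r was -0.78 (permutation p = 0.00269, adjusted p = 0.0087) and rho -0.78 (permutation p = 0.00435, adjusted p = 0.0152).

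Anxa5 had an r of -0.75 (permutation p = 0.00373, adjusted p = 0.0087) and a rho of -0.75 (permutation p = 0.00661, adjusted p = 0.0154). For Anxa1 r was -0.73 (permutation p = 0.00805, adjusted p = 0.0120) and rho -0.72 (permutation p = 0.0104, adjusted p = 0.0183). For Anxa2 r was -0.72 (permutation p = 0.00854, adjusted p = 0.0120) and rho -0.64 (permutation p = 0.0279, adjusted p = 0.0390). The remaining annexins did not pass. Anxa4 had an r of 0.40 (permutation p = 0.202, adjusted p = 0.236) and a rho of 0.32 (permutation p = 0.309, adjusted p = 0.360), and Anxa8 had an r of 0.04 (permutation p = 0.893, adjusted p = 0.893) and a rho of -0.05 (permutation p = 0.885, adjusted p = 0.885).

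All 5 relations passed whichever single SNx library was left out, but not in smaller sets. Without SNx 5 and SNx 6, the kidneys farthest from the median of Anxa13, r of the 5 annexins was between -0.72 and -0.53 and none passed (lowest adjusted p = 0.0697 by permutation). The calls by r were thus lost without those kidneys, in a smaller set (n = 10), while r stayed negative for all 5. Anxa3 had an unadjusted permutation p of 0.00996 there, and its rho of -0.89 kept an adjusted permutation p of 0.00784. Within the lower number range (n = 6) r of the 5 was between -0.86 and -0.71, and none passed the exact permutation test after adjustment (lowest adjusted p = 0.185). Within the higher range (n = 6) r was between -0.89 and -0.44, and Anxa1 alone passed (r = -0.87, exact permutation p = 0.00417, adjusted p = 0.0292). All 5 were negative in both ranges.

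A large share of all genes moved with Anxa13 over the SNx kidneys. Of 15436 genes, 10.3% had an r with Anxa13 below -0.7 and 10.9% above 0.7, and the quartiles were -0.49 and 0.53. The first principal component of the SNx kidneys, computed without the annexins, held 48.5% of the variance and had an r of 0.78 with Anxa13 (permutation p = 0.00336, rho 0.83 with permutation p = 0.0016, and r = 0.73 without SNx 5 and SNx 6). Within the lower range r with this component was 0.70 (exact permutation p = 0.153, n = 6) and within the higher range 0.90 (exact permutation p = 0.0264, n = 6). After this component was taken out of each gene, an alternative added after the data had been seen, r of the 5 annexins was between -0.51 and -0.08, and none passed with or without adjustment (lowest adjusted permutation p = 0.532). No test showed the relations with Anxa13 to be particular to the annexins. After the log2 total count of a library was taken out, r of the 5 was between -0.74 and -0.65 and all passed (adjusted permutation p between 0.0272 and 0.0305), whereas none did by rho (lowest adjusted permutation p = 0.148).

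**Figure D4:**
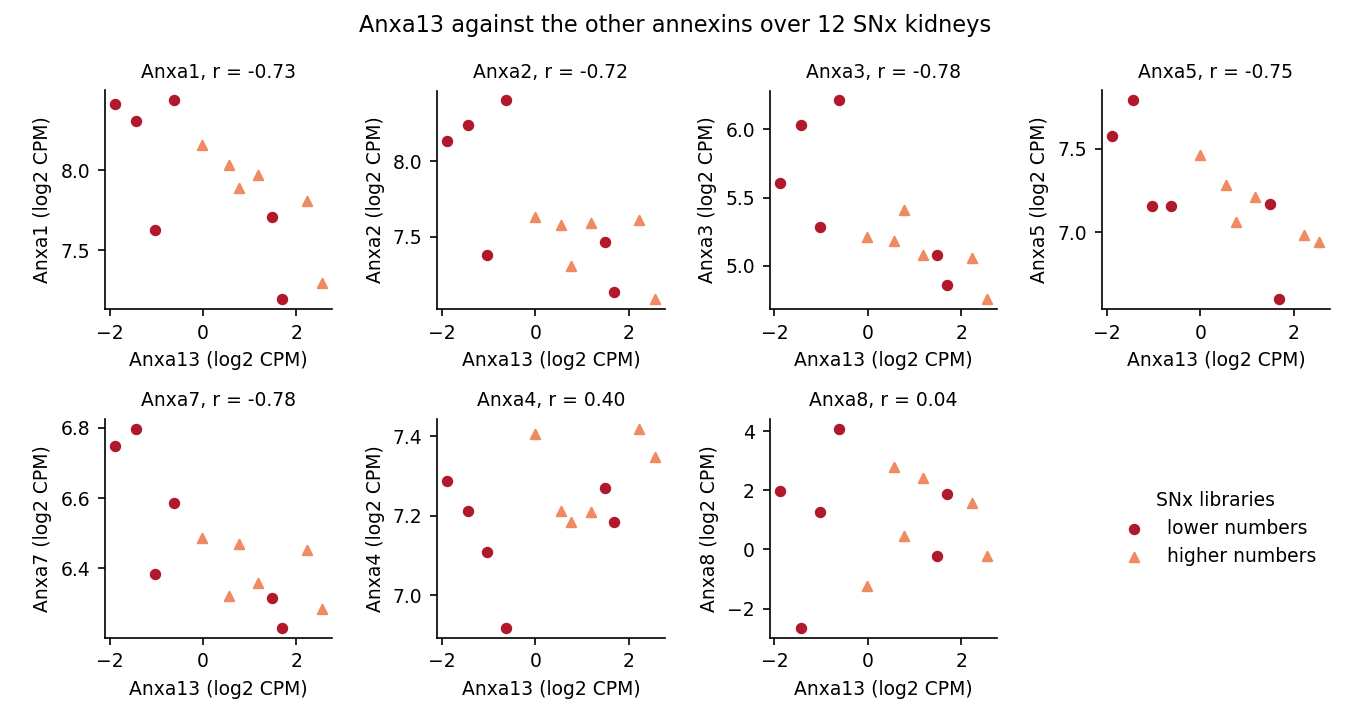
Level of 7 annexins (vertical, log2 CPM) against Anxa13 (horizontal, log2 CPM) over the 12 SNx kidneys, with circles for the lower and triangles for the higher range of library numbers. Anxa1, Anxa2, Anxa3, Anxa5 and Anxa7 fall from left to right (r between -0.78 and -0.72), with SNx 6 and SNx 5 at the far left, without which none of the 5 passed by r and Anxa3 passed by rho.

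Over the 98 other listed genes, 22 had a positive and 17 a negative r with Anxa13 within SNx that passed (permutation test, adjusted over the 98). By Spearman's rho 33 positive and 18 negative relations passed. Without SNx 5 and SNx 6, an alternative added after the data had been seen, none passed by r, although 24 positive and 14 negative relations then had an unadjusted permutation p under 0.05, while 18 positive and 5 negative relations passed by rho. The median r of the apical genes was 0.64 there. Of the 27 apical proximal tubule genes, 14 ran with Anxa13 and 1 against it, with a median r of 0.67 against 0.03 over all genes. Over all genes, 10.9% had an r above 0.7 and 10.3% below -0.7. These shares are a cut on r without a test, unlike the counts of listed genes that passed. Slc3a1 had an r of 0.77 (adjusted permutation p = 0.0158, rho 0.84, adjusted permutation p = 0.00747), with 0.70 in the lower range, 0.88 in the higher and 0.72 without SNx 5 and SNx 6. Lrp2, at 0.65 (adjusted permutation p = 0.0562, rho 0.73, adjusted permutation p = 0.0226), passed by rho alone. Dab2 was the apical gene that ran against Anxa13, with an r of -0.80 (adjusted permutation p = 0.0148).

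Of the 6 injury genes, 5 ran against Anxa13. Spp1 had an r of -0.87 (adjusted permutation p = 0.0137), with -0.86 in both ranges and -0.76 without SNx 5 and SNx 6. Clu had -0.68 (adjusted permutation p = 0.0444), and Lcn2, which encodes the secreted iron-carrier lipocalin, had -0.79 (adjusted permutation p = 0.0138). Of the leukocyte genes 1 of 17 passed and of the fibroblast genes 1 of 7, both negative, with a median r of -0.15 and -0.38. Over all genes 10.3% had an r below -0.7, a share without a test. The leukocyte gene was Cd14, a lipopolysaccharide co-receptor, with -0.82 (adjusted permutation p = 0.0137), and the fibroblast gene was Vim, an intermediate filament, with -0.80 (adjusted permutation p = 0.0137).

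Of the annexin partners, S100a11 had an r of -0.67 (adjusted permutation p = 0.0444), while S100a10, at -0.57, did not pass (adjusted permutation p = 0.0981). S100g, which was low in SNx as Anxa13 was, had an r of 0.72 (adjusted permutation p = 0.0304). Among the C2 domain genes, 3 of 10 passed, all negative. The share of all genes with an r below -0.7, taken without a test, was 10.3%. Myof had -0.77 (adjusted permutation p = 0.0181). Ehd3 and Ptpro had an r of 0.89 and 0.82. When the first component was taken out, 4 listed genes passed by r (1 by rho, Pdzk1), and all were negative, among them Pdzk1 (-0.83), Hnf4a (-0.82) and Dab2 (-0.80), each with an adjusted permutation p of 0.0461. Pdzk1 is a scaffold of the brush border and Hnf4a a transcription factor of the proximal tubule. Before that step r was 0.62 for Pdzk1 and 0.65 for Hnf4a, so their sign depends on it. Pdzk1 and Dab2 are named because they passed, not by the rule for named genes.

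**Figure D5:**
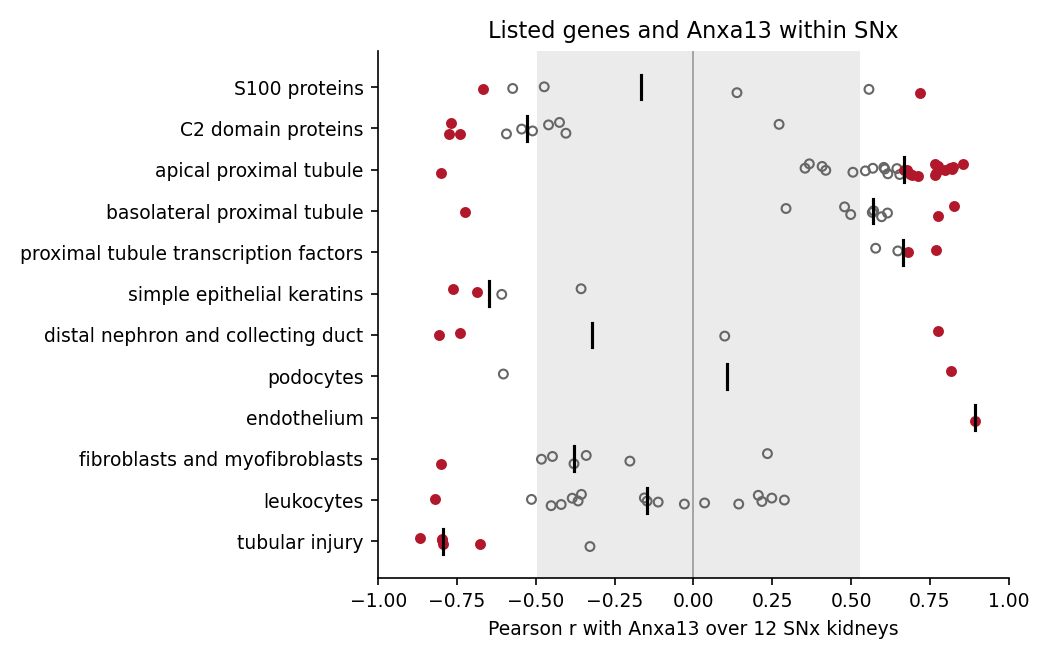
Pearson's r with Anxa13 over the 12 SNx kidneys for 98 genes in 12 lists. Filled points passed the permutation test after adjustment, black bars are list medians and the grey band spans the quartiles of all genes (-0.49 to 0.53). Apical proximal tubule genes gather at the right, apart from Dab2, and tubular injury genes at the left.

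The genes whose pattern over the 12 SNx kidneys was most like that of Anxa13 were sought among 1946 genes with a symbol and a mean of at least 1 log2 CPM, by Pearson's r, and they carry no p because r picked them. Gcgr, the glucagon receptor, was first at 0.94, followed by Hspb6, a small heat shock protein, at 0.93 and Mat2a, which makes the methyl donor S-adenosylmethionine, at 0.89. Gcgr was 2.59 to 4.87 log2 CPM in SNx and 5.72 to 6.17 in NoOp. Ehd3, an endocytic recycling protein, and Rab29, a small GTPase of vesicle traffic, both had 0.89. LOC689574, a hypothetical protein, the retinoid flippase gene Abca4, and Slc23a3, of the family of ascorbate transporters, all had 0.88. These 8 genes had an r between 0.80 and 0.99 within each range and between 0.81 and 0.90 without SNx 5 and SNx 6. Their log2 fold changes in SNx lay between -2.31 and -0.73. All were smaller in size than that of Anxa13, which was picked for its fall.

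The 5 genes most opposite were Adcy2, an adenylate cyclase (-0.93), Mab21l3 (-0.92), Lama1, a basement membrane laminin chain (-0.91), Vstm2b (-0.90) and Snph, which anchors mitochondria (-0.90). Their log2 fold changes in SNx lay between 0.93 and 3.54. All these genes were measured in the same libraries at the same depth.

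The ranges of library numbers were compared within SNx. Anxa13 was -0.30 ± 1.52 log2 CPM (SD, n = 6) in the lower range and 1.21 ± 0.996 (SD, n = 6) in the higher, a difference of -1.51 (two-sided exact permutation test, p = 0.0736, adjusted p = 0.320 over 8 annexins). None of the 8 annexins passed this test, at an unadjusted p under 0.05 either. Against NoOp, the SNx kidneys of the lower range alone gave a log2 fold change of -4.49 and those of the higher range -3.35. Both fits used the same NoOp kidneys, which all lie in the lower range, so the second fit also crosses the ranges.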

How the data were processed

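Kidney RNA of 12 SNx and 5 NoOp samples was depleted of ribosomal RNA and sequenced paired-end from strand-specific libraries. The RNA integrity estimates of the study's samples spanned a wide range and included low values. No estimate for a single library was used here, and the part of RNA quality in these values was not tested. The authors estimated counts per transcript (the submitters' processing notes name Salmon, limma and rn6, without versions) which tximport brought to gene level, and the deposited expected counts per gene are whole numbers, so rounding them changed no value. The deposited log2 values (log-scale values after voom, per the methods of the authors) cover 13318 genes and served as an alternative. The 34 columns of the tables of the whole series hold the same numbers and stayed unused.

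The model was edgeR 4.0.16 under R 4.3.3 (filterByExpr, TMM, quasi-likelihood test, two-sided, Benjamini-Hochberg over 15438 genes, FDR < 0.05). Levels are CPM, or log2 CPM with a prior count of 2. The SE is the log2 fold change divided by the square root of F. Correlations used 100000 permutations, or all orders for 6 libraries (Python 3.11.15, numpy 2.4.6). The fit and the correlation test were tested on simulated data. Other settings tried were a filter of 10 or more counts in each library, no filter, library size alone, RLE factors, robust dispersions, a prior count of 0.5, limma-voom and limma on the deposited log2 values (version 3.58.1), DESeq2 1.42.0, leaving out each library, and using either range of library numbers.

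Anxa13, the gene lists and the tests were chosen with earlier results of these data known. Named genes are the annexins with an identifier, the most abundant 2 to 4 genes (by mean count over all libraries) of each list with more than 1 reported gene, and the 8 most like and 5 most opposite to Anxa13 by r. Other listed genes were named after their values were seen. Poisson intervals (95%) cover counting error only, since no molecular identifiers are mentioned. RefSeq names of a newer assembly served only for neighbours and pseudogenes. No sequence is printed, and some listed genes are not reported here.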

Additional observations from a re-analysis of the deposited data

How the results depend on the processing

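The log2 fold change of Anxa13 stayed between -4.08 and -3.42 when each library was left out and between -4.49 and -3.35 under the other alternatives, and 5 of the other annexins were upregulated in each of these, or 6 with library size alone. A filter of 10 counts in every library leaves no value for Anxa13. Scaling by library size alone gave 7044 upregulated and 2403 downregulated genes in place of 4672 and 4277, since it moved the median of all genes to 0.23. When each library was left out, these counts ranged from 4148 to 4882 and from 3766 to 4556. Anxa4, which did not pass, changed sign to -0.023 with the SNx libraries of the lower range alone and ranged from -0.0052 (without NoOp 2) to 0.11 when each library was left out. The negative relations of Anxa13 with other annexins within SNx numbered 5, and 5 whichever library was left out, but 0 within the lower range, 1 within the higher, 0 without the 2 libraries farthest from the median (1 by rho, Anxa3) and 0 after the first component was taken out. For the listed genes, 22 positive and 17 negative relations by r became 0 and 0 without those 2 libraries (33 and 18 by rho became 18 and 5) and 0 and 4 after the component. The relation with Anxa4 changed sign to -0.00588 after the component and that with Anxa8 to -0.26 without the 2 libraries, and the latter ranged from -0.29 to 0.20 when each SNx library was left out. Of the 5 genes most opposite to Anxa13, 3 were shared with library size alone and 3 with the deposited normalized values. The cause of these changes was not tested. The libraries without SNx 5 and SNx 6, and those of 1 range, are fewer, which lowers what a test can show. The labels pair no samples. No paired analysis was possible because the replicate numbers only follow the order of the samples. Depth limits Anxa13 most in SNx 6 and SNx 5, with 4 and 7 counts.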
